A study of Mus musculus with 2 samples.

Results

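The genes described here are 8 members of the major histocompatibility complex (MHC) antigen presentation pathway, chosen by symbol out of the 27998 genes counted by 10x single-cell sequencing in mouse leukemia driven by MLL-AF9. H2-K1, H2-D1 and B2m are the 3 class I members. H2-DMa, Cd74, H2-Aa, H2-Ab1 and H2-Eb1 are the 5 class II members. Each symbol has 1 row, and class I was compared with class II in cells with 500 or more detected genes, called kept cells below.

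The study asked how loss of Kat2a, a histone acetyltransferase, alters transcript levels and their variation between leukemia cells. All donor mice were C57Bl/6 animals with Kat2a Flox/Flox alleles and all were given pIpC, a double-stranded RNA mimic that induces interferon and thereby the Mx1 promoter. Donors with Mx1-Cre -/- gave the WT leukemias and donors with Mx1-Cre +/- gave the KO leukemias, so Cre and the excised alleles, but not pIpC, differed between groups. Marrow was taken 4 to 6 weeks later, transduced with a retrovirus for the MLL-AF9 fusion oncogene and its YFP reporter, and grown in lethally irradiated recipients, which can keep some blood cells of their own. Frozen cells of 5 terminal WT and 4 terminal KO leukemias were thawed, pooled by genotype and sorted as live YFP-positive singlets for 1 10x Genomics library per genotype. There was therefore no replicate and no test between genotypes, and the cells of single leukemias inside a pool carry no label. By the methods of the study, pIpC was given to mice 6 to 10 weeks old.

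Class I molecules sit on nearly all nucleated cells and show peptides from the cytosol to CD8 T cells; each is a heavy chain, such as those encoded by H2-K1 and H2-D1, paired with beta-2-microglobulin, the product of B2m. Class II molecules belong mainly to dendritic cells, B cells and macrophages and show peptides from endosomes to CD4 T cells. H2-Aa and H2-Ab1 encode the alpha and beta chains of I-A and H2-Eb1 the beta chain of I-E, Cd74 encodes the invariant chain that fills the groove until the endosome, and H2-DMa encodes a chain of the H2-DM exchange factor that helps to load peptide. C57BL/6 mice lack a functional alpha chain for I-E, so H2-Eb1 transcript in this strain does not lead to I-E on the surface.

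In the annotation used for positions (GENCODE M21, GRCm38) the MHC members lie on chromosome 17: H2-K1 at chr17:33996017-34000347 on the minus strand, H2-DMa at chr17:34119541-34139101, H2-Ab1 at chr17:34257689-34269419, H2-Aa at chr17:34282744-34287823 on the minus strand, H2-Eb1 at chr17:34305867-34316674 and H2-D1 at chr17:35262730-35267499. B2m lies at chr2:122147686-122153083. All 7 are annotated as protein coding, and genes with no strand named are on the plus strand. Promoter stretches that hold the motifs searched for are shown for H2-K1, H2-D1, B2m, H2-Aa and H2-Eb1. A link between these motifs and the differences between libraries was not tested. Each is written 5′ to 3′ on the strand of the gene, from RefSeq (GRCm38.p6), and ends before the listed start site; each window searched ran from 250 bases before to 50 after that site. Capitals mark ATTGG (the Y box core) or its reverse complement, TGACG (the X2 box core) or its reverse complement, and GGGATTCCC (the core of an NF-kB site), as a search for these letters on both strands found them.
H2-K1: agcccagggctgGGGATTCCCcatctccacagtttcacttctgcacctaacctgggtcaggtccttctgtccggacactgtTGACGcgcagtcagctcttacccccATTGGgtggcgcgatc
H2-D1: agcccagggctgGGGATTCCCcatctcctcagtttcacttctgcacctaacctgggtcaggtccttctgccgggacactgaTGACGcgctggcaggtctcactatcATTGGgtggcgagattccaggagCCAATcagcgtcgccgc
B2m: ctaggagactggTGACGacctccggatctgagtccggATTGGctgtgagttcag
H2-Aa: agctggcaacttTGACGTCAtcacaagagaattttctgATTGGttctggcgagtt
H2-Eb1: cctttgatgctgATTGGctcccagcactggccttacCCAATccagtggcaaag

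These stretches are chr17:34000348-34000469 (minus) for H2-K1, chr17:35262912-35263057 (plus) for H2-D1, chr2:122147597-122147650 (plus) for B2m, chr17:34287855-34287909 (minus) for H2-Aa and chr17:34305796-34305848 (plus) for H2-Eb1. In H2-K1, H2-D1, B2m and H2-Aa, TGACG was followed 20 to 30 bases on by the start of ATTGG, an arrangement found in 143 of 32851 promoter windows (0.435%). ATTGG alone was in 37.4% and TGACG alone in 20.8% of windows, so either by itself was common. GGGATTCCC was in 116 windows (0.353%), among them those of H2-K1 and H2-D1, whose promoters were the same at 88 of 99 aligned bases from that site to ATTGG. In TGACGTCA of H2-Aa the letters of both strands overlap. The first listed H2-DMa window held none of the 3 motifs. A match is a description of letters and not evidence of binding. H2-Ab1 and Cd74 are named only.

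The WT-labelled library gave 3866 kept cells with 11669427 UMIs (unique molecular identifiers, which count captured transcripts and not their PCR copies) and the KO-labelled library gave 3545 kept cells with 7920256 UMIs. Kept cells had a median of 2588.5 UMIs in the WT-labelled library and 1884 UMIs in the KO-labelled library. Levels are given as CPM (UMIs per 1000000 UMIs of the library) with exact 95% Poisson intervals. Intervals cover counting error only, and since class II UMIs came in clumps from few cells they are too narrow for those genes. The targeted gene, Kat2a, went against the labels, with 12.2 CPM in the WT-labelled library and 95.8 CPM in the KO-labelled library, and the excised allele keeps a 3′ part that these libraries could count, so Kat2a does not check the labels. The libraries shared 28 cell barcodes, and leaving out those cells moved no member's log2 ratio out of its interval.

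The 3 class I members were abundant and widely detected in both libraries, and each was higher in the KO-labelled library. H2-K1 had 187 CPM (179 to 195) in the WT-labelled library and 320 CPM (307 to 332) in the KO-labelled library, a log2 ratio of 0.77 (0.69 to 0.86). H2-D1 stood at 1340.25 CPM (1319 to 1361) against 1874 CPM (1844 to 1904), with a log2 ratio of 0.48 (0.45 to 0.52). B2m, the shared light chain, stood at 1457 CPM (1435 to 1479) against 2312 CPM (2279 to 2346), with a log2 ratio of 0.67 (0.64 to 0.70). The intervals of the libraries do not overlap for any of these genes. H2-K1 and H2-D1 resemble each other: of the stretches of 50 bases in the last 500 bases of their coding transcripts, 9.60% for H2-K1 and 8.92% for H2-D1 also occur in transcripts of other genes, whereas 0 did for B2m, H2-DMa, H2-Aa, H2-Ab1 and H2-Eb1. How far the counting moved reads between the heavy chain genes was not tested.

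Class II split into H2-DMa and the other 4 genes. H2-DMa had 116 CPM (110 to 122) in the WT-labelled library and 184 CPM (175 to 194) in the KO-labelled library, and its log2 ratio of 0.66 (0.56 to 0.77) was of the size seen in class I. Cd74 had 52.6 CPM (48.5 to 56.9) against 498 CPM (482 to 513), a log2 ratio of 3.24 (3.12 to 3.37). H2-Aa had 12.3 CPM against 113 CPM, a log2 ratio of 3.21 (2.95 to 3.47). For its partner H2-Ab1 the levels were 20.7 CPM and 109.6 CPM, a log2 ratio of 2.40 (2.19 to 2.61). H2-Eb1 was the lowest member, at 6.00 CPM (70 UMIs) and 40.9 CPM (324 UMIs), a log2 ratio of 2.77 (2.39 to 3.16).

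Read against all genes, 7 of the 8 members were at least 1.5-fold higher in the KO-labelled library, where 5.43% of the 7861 genes with at least 100 UMIs were. H2-D1, at 1.40-fold, was the exception. The median log2 ratio was 0.67 over the class I members and 2.77 over the class II members, beside -0.0018 over those 7861 genes. From the highest log2 ratio down, Cd74 ranked 3, H2-Aa 4, H2-Eb1 9 and H2-Ab1 14, while H2-K1 ranked 218, B2m 310, H2-DMa 313 and H2-D1 684. Summed, class I was 2985 CPM against 4505 CPM, a log2 ratio of 0.59 (0.57 to 0.62), and class II was 208 CPM against 945 CPM, a log2 ratio of 2.19 (2.12 to 2.25). The class I ratio was thus lower than the class II ratio by 1.59 on the log2 scale (difference -1.59, -1.66 to -1.52). Class I UMIs outnumbered class II UMIs 14.4 to 1 in the WT-labelled library and 4.77 to 1 in the KO-labelled library, a comparison that needs no scaling to depth.

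**Figure D1:**
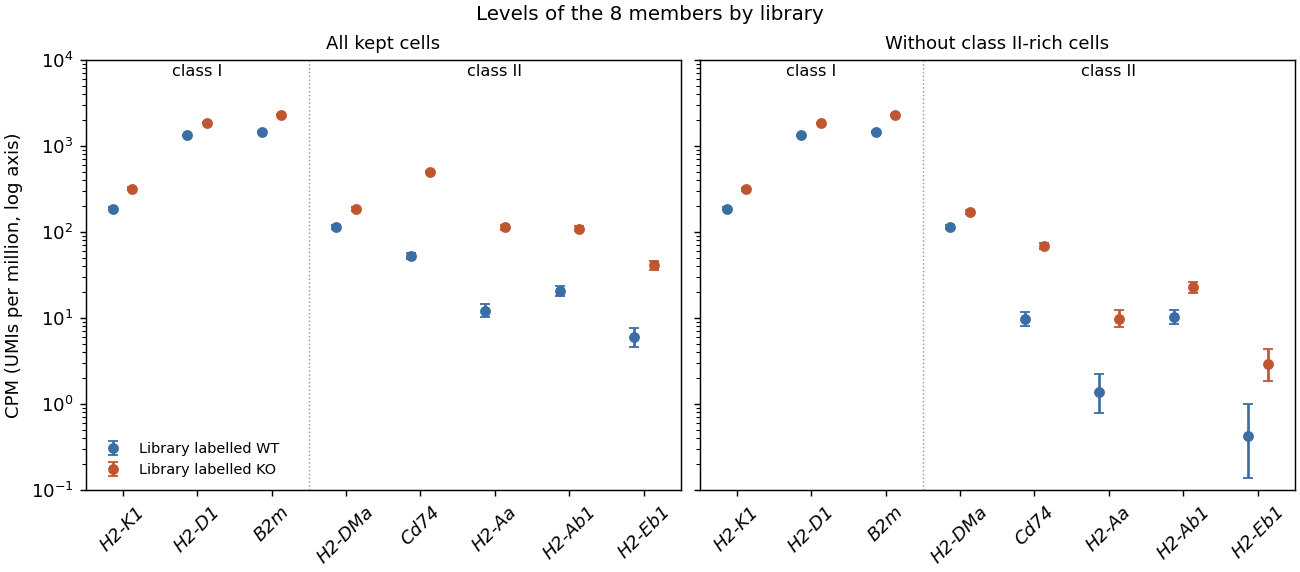
CPM of each member (log axis) in the WT-labelled library (blue) and the KO-labelled library (orange), over all kept cells on the left and without class II-rich cells on the right; bars are exact 95% Poisson intervals. The class I genes and H2-DMa stay near their levels when those cells are left out, while Cd74 drops from 498 to 69.1 CPM in the KO-labelled library and from 52.6 to 9.70 CPM in the WT-labelled library.

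The classes also differed in how many cells carried them. At least 1 class I UMI was found in 99.0% of kept cells of the WT-labelled library and 98.6% of the KO-labelled library. B2m was detected in 91.0% and 90.5% of cells, H2-D1 in 91.3% and 89.4%, H2-K1 in 33.9% and 36.8%, and H2-DMa in 21.8% and 23.6%. Cd74 was detected in 57 of 3866 cells (1.47%, exact binomial 95% interval 1.12 to 1.91%) and in 321 of 3545 cells (9.06%, 8.13 to 10.0%). H2-Aa was found in 18 and 141 cells, H2-Ab1 in 2.61% and 6.06% of cells, and H2-Eb1 in 12 and 77 cells. The class I shares were close to each other, whereas the share with Cd74 was higher in the KO-labelled library, beyond counting error.

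Depth per cell differed between libraries, so shares were also taken after each cell was thinned to 1000 UMIs, which left out 66 cells of the WT-labelled library and 194 cells of the KO-labelled library with fewer. B2m was then in 69.7% (68.2 to 71.1%) and 79.1% (77.7 to 80.5%) of cells, and H2-D1 in 67.4% and 73.8%. H2-K1 was in 15.4% and 22.6% and H2-DMa in 9.39% and 14.2%. Cd74 was in 0.711% (0.469 to 1.03%) and 5.40% (4.66 to 6.22%). For any class I UMI the shares were 90% and 93.9%, so the order of the libraries was opposite to the one before thinning.

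A small number of cells held most UMIs of Cd74, H2-Aa, H2-Ab1 and H2-Eb1 in both libraries. For H2-Ab1 the top 1% of kept cells held 74.4% in the WT-labelled library and 68.4% in the KO-labelled library. Cells with UMIs of at least 2 of the 3 chain genes H2-Aa, H2-Ab1 and H2-Eb1 were called class II-rich: 8 of 3866 kept cells in the WT-labelled library (0.207%, 0.0894 to 0.407%) and 74 of 3545 in the KO-labelled library (2.09%, 1.64 to 2.61%). The rule did not use Cd74, yet these cells held 81.6% of Cd74 UMIs in the WT-labelled library and 86.3% in the KO-labelled library. By contrast they held 1.40% and 9.33% of H2-DMa UMIs and no more than 0.412% and 3.003% of the UMIs of any class I member. The rule used H2-Aa, H2-Ab1 and H2-Eb1, of which they held 88.8%, 50% and 92.9% in the WT-labelled library and 91.4%, 79.5% and 92.9% in the KO-labelled library. Since the leukemias of a pool cannot be told apart, how many of the 4 KO leukemias contributed the 74 cells is unknown.

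**Figure D2:**
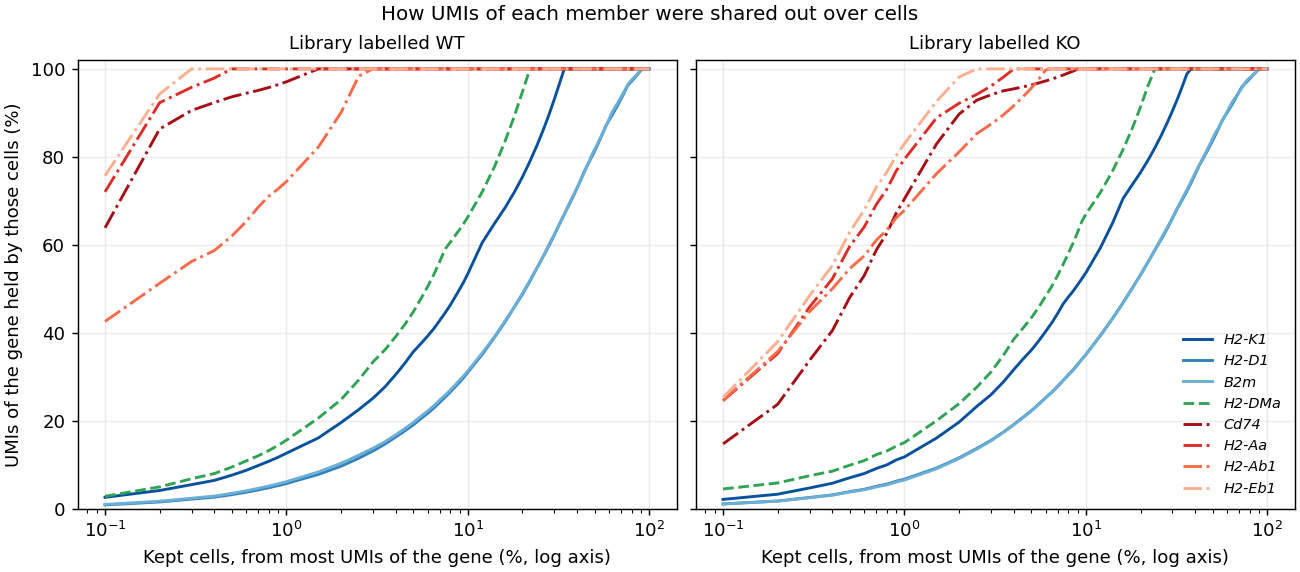
Percent of a gene's UMIs (vertical axis) held by the kept cells with most UMIs of it (horizontal axis, percent of kept cells, log axis), by library; solid lines are class I, the dashed line is H2-DMa and dash-dotted lines are the other class II genes. The top 1% of cells held 97.1% of Cd74 UMIs in the WT-labelled library and 71.4% in the KO-labelled library, but 6.13% and 6.65% of B2m UMIs and 15.6% and 15.3% of H2-DMa UMIs.

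Levels were also summed within class II-rich cells, which the rule selected by UMIs of H2-Aa, H2-Ab1 and H2-Eb1. All 3 of these genes were found in 7 of the 8 cells of the WT-labelled library. In the KO-labelled library they were found in 52 of the 74. Cd74 UMIs per cell had a lowest value of 0, a median of 59 and a highest value of 127 in the 8 cells of the WT-labelled library, and a lowest value of 0, a median of 36 and a highest value of 170 in the 74 cells of the KO-labelled library. The ranges of the 2 libraries overlap. Summed, Cd74 was 34607 CPM in the first and 27832 CPM in the second, a log2 ratio of -0.31 (-0.45 to -0.18). The log2 ratio was -0.39 for H2-Aa, -0.57 for H2-Ab1 and -0.87 for H2-Eb1. Since the rule used these 3 genes, their ratios here describe the selected cells and do not compare the genotypes. With 8 cells in the WT-labelled library, intervals that treat UMIs as separate counts are too narrow. H2-DMa had 1312 CPM and 1113 CPM there, and its interval of the log2 ratio, -0.94 to 0.54, spans 0. Class I summed to 5940.5 CPM and 7387 CPM in these cells, with an interval of the log2 ratio of -0.0058 to 0.65.

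The chain genes were also set against the invariant chain within class II-rich cells. For each UMI of Cd74 there were 0.253 UMIs of H2-Aa in the WT-labelled library and 0.241 in the KO-labelled library. H2-Ab1 had 0.242 and 0.203, and H2-Eb1 had 0.130 and 0.0885. The proportion of H2-Aa was closest between the libraries and that of H2-Eb1 furthest apart. Outside class II-rich cells H2-Aa had 0.142 and 0.143 per Cd74 UMI, H2-Ab1 had 1.07 and 0.330, and H2-Eb1 had 0.0442 and 0.0427. H2-Ab1 in cells that were not class II-rich was thus not in the proportion to Cd74 found in class II-rich cells, in either library. A lower proportion of the chain genes outside is in part set by the rule that defined the cells.

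Class II-rich cells were shallow, with medians of 1242.5 UMIs and 614 genes in the WT-labelled library and 1157 UMIs and 600 genes in the KO-labelled library. Cell type markers in them were read against the other kept cells of the same library. B cell markers were at 0 for 7 of 7 genes in the 8 cells of the WT-labelled library. In the 74 cells of the KO-labelled library, 3 of 7 were at 0, among them Pax5, and the list summed to 115 CPM (62.6 to 192) beside 78.7 CPM in other cells, with most of it from Cd79b. Of 13 dendritic cell markers, 10 and 7 were at 0, among them Xcr1, Clec9a, Ccr7 and Zbtb46 in both libraries. The dendritic cell list summed to 484 CPM (194 to 996) and 491 CPM (375 to 632), beside 81.1 CPM and 109 CPM in other cells. Its UMIs came from genes such as Flt3, Bst2 and Cd209a.

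Monocyte or macrophage markers stood at 6977 CPM (5683 to 8477) in the class II-rich cells of the WT-labelled library and 3665 CPM (3334 to 4021) in those of the KO-labelled library, beside 1649 CPM and 1617 CPM in other cells. Ms4a6c had 1382 CPM and 630 CPM, and Ctss, a protease that trims the invariant chain, had 1105 CPM and 867 CPM. The complement genes C1qa, C1qb and C1qc came from few cells, C1qb from 1 cell and 4 cells. Granulocyte markers were lower than in other cells, at 23071 CPM beside 103585 CPM and 17467 CPM beside 94895 CPM. Progenitor markers stood at 2763 CPM beside 15270 CPM and 10521 CPM beside 13640 CPM. Erythroid markers were at 0 for 8 of 8 genes in the first library and summed to 98.2 CPM beside 558 CPM in the second. T or NK cell markers were at 0 for 9 of 9 and 8 of 9 genes, all but Nkg7, which progenitors also express. Mast cell or basophil markers summed to 69.1 CPM beside 95.5 CPM and to 524 CPM beside 194 CPM, the latter from 4 cells. Markers with at least 100 UMIs were also counted past 1.5-fold over all kept cells. Higher in the KO-labelled library were 4 of 4 erythroid and 3 of 3 mast cell or basophil markers. So were 1 of 11 progenitor, 1 of 1 T or NK cell and 1 of 10 cell cycle markers. Lower were 3 of 12 monocyte or macrophage, 3 of 13 granulocyte and 2 of 10 cell cycle markers. For B cell and dendritic cell markers it was 0 of 1 and 0 of 2. Of all 7861 genes with as many UMIs, 5.43% were higher and 9.9% lower. The part of other cell types in the difference between libraries was not tested, and the cells are therefore called only by their leading class II genes.

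Other genes of the pathway were also high in these cells. In those of the KO-labelled library, H2-DMb1 and H2-DMb2, partners of H2-DMa, had 671 CPM and 474 CPM beside 109 CPM and 14.6 CPM in other cells. Lgmn, an endosomal protease, had 335 CPM beside 29.8 CPM. Chosen after the values were seen, Cd7, a surface protein of lymphoid and some dendritic cells, had the highest fold (with 100 CPM added) among genes other than members found in at least 10 of these cells, at 491 CPM beside 3.21 CPM. It was found in 26 of the 74 cells and in 1 of the 8 cells of the WT-labelled library.

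Outside class II-rich cells the class I ratios hardly moved and most class II genes still differed. H2-K1, H2-D1 and B2m had log2 ratios of 0.76, 0.47 and 0.66, and H2-DMa had 0.56 (0.45 to 0.67). Cd74 had 9.70 CPM (113 UMIs) and 69.1 CPM (539 UMIs), and it was detected in 1.296% (0.963 to 1.71%) and 7.35% (6.50 to 8.27%) of those cells. In granulocyte-like clusters, whose cells should lack class II, Cd74 was found in 0.449% (0.123 to 1.15%) of cells at a median depth of 1802 and 2055 UMIs in the 2 clusters, and in 5.08% (3.04 to 7.92%) at 1493 and 1842 UMIs, class II-rich cells left out here too. Without thinning, the share of Cd74 lay above the interval of that background in the WT-labelled library and within it in the KO-labelled library. H2-Ab1 was in 2.41% of cells outside class II-rich cells in the WT-labelled library, above the 0.337% (0.0696 to 0.982%) of its granulocyte-like cells. In the KO-labelled library it was in 4.06% against 1.69% (0.624 to 3.65%), also above. These shares were not matched for depth. After thinning to 1000 UMIs, Cd74 in the WT-labelled library was within the background interval, at 0.580% against 0.113% (0.00285 to 0.626%). H2-Ab1 was above it there, at 0.738% against 0.113% (0.00285 to 0.626%). In the KO-labelled library H2-Ab1 was within it, at 1.82% against 1.69% (0.623 to 3.64%). Thinned shares of granulocyte-like clusters include their class II-rich cells. H2-Eb1 was down to 5 and 23 UMIs.

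Cells were then split into 12 k-means clusters made without any gene of the antigen presentation lists. Class I spread little over clusters, with 3.05-fold between the highest and the lowest cluster in the WT-labelled library and 3.47-fold in the KO-labelled library. H2-DMa spread 29.8-fold and 28.1-fold, and class II as a whole 340-fold and 120.4-fold. The class I sum was higher in the KO-labelled library in 11 of 12 clusters, with an interval of the log2 ratio above 0 in 10. The largest log2 ratios were 0.90 in cluster 7, led by Ly6e and Pik3ip1, and 0.89 in cluster 3, led by chaperone and growth genes such as Hspd1 and Srm. In the granulocyte-like clusters, marked by Ltf, Mmp9 and Lcn2, it was -0.0054 (-0.10 to 0.091) in cluster 2 and 0.024 (-0.10 to 0.15) in cluster 11. The members differed there, with log2 ratios over both clusters of 0.17 (0.063 to 0.27) for B2m and -0.20 (-0.32 to -0.077) for H2-D1, and their sum hides this.

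Monocyte or macrophage-like cells carried more class I and more H2-DMa than most clusters. In cluster 6, marked by Apoe and Ctss, the class I sum was 5845 CPM and 6867 CPM, a log2 ratio of 0.23 (0.15 to 0.32). In cluster 10, marked by Irf8, F13a1 and Ms4a6c, it was 3865 CPM and 6857 CPM, a log2 ratio of 0.83 (0.75 to 0.90). H2-DMa had 249 CPM and 409.9 CPM in cluster 6 and 284 CPM and 353 CPM in cluster 10. In cluster 7 it had 268 CPM (224 to 319) and 368 CPM (323 to 417). Its lowest level was in cluster 4, led by mitotic genes such as Ube2c and Ccnb1, at 21.9 CPM and 30.4 CPM. The progenitor-like cluster 8, marked by Mpo and Elane, had 98.8 CPM and 103 CPM of H2-DMa, with an interval of the log2 ratio of -0.39 to 0.50.

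Class II-rich cells fell mainly into cluster 12, which held 6 of the 8 in the WT-labelled library and 52 of the 74 in the KO-labelled library. Cluster 12, led by Itgb7 and Ctss, had 15 of 16 monocyte or macrophage markers raised, but also 8 of 13 dendritic cell and 7 of 8 erythroid markers, and was left unnamed for this. It held 59 kept cells of the WT-labelled library and 341 of the KO-labelled library, so it may stand for a library and not a type. Within it, class II-rich cells were 10.2% and 15.2% of cells. Cd74 was 5770 CPM (5284 to 6287) there in the first and 7511 CPM (7253 to 7776) in the second, a log2 ratio of 0.38 (0.25 to 0.52), against 3.24 over all kept cells. B2m in cluster 12 was 1975 CPM and 4103 CPM, a log2 ratio of 1.05 (0.83 to 1.29). After clusters were reweighted to the same shares in both libraries, the class II log2 ratio was 0.83 and the class I log2 ratio 0.61. Without cluster 12 they were 1.24 and 0.52.

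Cd74 outside class II-rich cells was unevenly placed. It was found in 5.10% (3.29 to 7.49%) of the cells of cluster 6 in the WT-labelled library and in 19.6% (13.9 to 26.5%) in the KO-labelled library, and in 2.30% and 13.2% of cells of cluster 10. Cluster 12 had 9.43% and 15.6%. The other 9 clusters lay between 0 and 1.54% in the WT-labelled library and between 3.99% and 10.1% in the KO-labelled library. The shares of cluster 6 lay above those of granulocyte-like cells in both libraries.

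**Figure D3:**
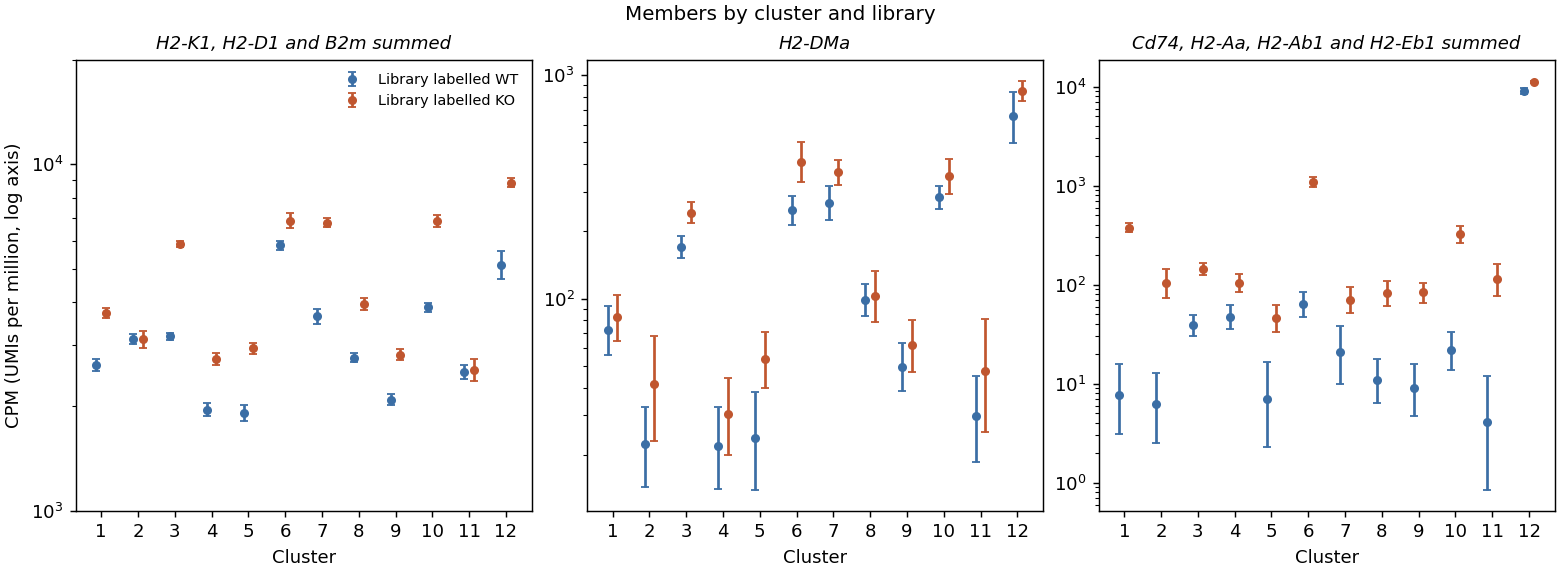
CPM (log axes, each panel with its own range) by cluster in the WT-labelled library (blue) and the KO-labelled library (orange), for the class I members summed, H2-DMa, and the other 4 class II members summed; bars are exact 95% Poisson intervals. Cluster 12 is highest for H2-DMa and for the class II sum in both libraries, and the class I points of granulocyte-like clusters 2 and 11 coincide.

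Of the other genes of the pathway, 52 had at least 100 UMIs and 14 lay past 1.5-fold (10 higher, 4 lower), beside 5.43% and 9.9% of all genes with as many UMIs. For class I peptide loading, 2 of 8 genes were higher and 0 lower, with a median log2 ratio of 0.10. Tapbp, or tapasin, which holds class I at the peptide transporter, had 113 CPM and 177 CPM, and Erap1, which trims peptides, had 12.4 CPM and 22.98 CPM. Tap1, a subunit of that transporter, was at 0.38 (0.11 to 0.65) on the log2 scale. The chaperones Canx, at -0.49 (-0.61 to -0.38), and Calr, at -0.26 (-0.33 to -0.19), were lower in the KO-labelled library, short of 1.5-fold, and were named after their values were seen. The 5 immunoproteasome genes all had log2 ratios between 0.18 and 0.36, none past the limit, with Psmb8 at 449 CPM and 578 CPM.

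Among non-classical and other class I genes, 2 of 7 were higher, with a median log2 ratio of 0.35. H2-M3, which presents formylated peptides, had 9.77 CPM and 22.6 CPM. H2-Q7 had 3.26 CPM (38 UMIs) and 13.6 CPM (108 UMIs), and 11.8% of its 3′ stretches also occur in other genes, so its reads are uncertain. H2-T23, which encodes Qa-1, was at 0.19 (-0.0085 to 0.39). The H2-T10 symbol has no row.

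For the other class II genes, 2 of 3 were higher: H2-DMb2 at 10.6 CPM and 21.7 CPM and H2-Oa, a chain of the H2-DM inhibitor H2-O, at 5.66 CPM and 22.1 CPM. Without class II-rich cells the log2 ratio of H2-DMb2 was 0.52, under the limit, and that of H2-Oa was 1.81. H2-DMb1, the partner of H2-DMa, had 116 CPM and 117 CPM (log2 ratio 0.023, -0.0995 to 0.14). In class II processing, 1 of 5 genes was higher and 1 lower, with a median log2 ratio of 0.040. Lgmn had 18.1 CPM and 34.5 CPM. March1, a ubiquitin ligase that removes class II from the surface, had 39.4 CPM and 18.8 CPM. In the class II-rich cells of the KO-labelled library it had 3 UMIs, or 24.5 CPM, beside 18.7 CPM in other cells. Ctss was at 0.35 (0.26 to 0.44), and Ifi30, a thiol reductase of the endosome, at 0.040 (-0.11 to 0.19).

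None of the 16 regulators was past the limit upwards and 3 were lower, with a median log2 ratio of -0.15. Irf8, a factor of monocyte and dendritic cell development, had 171 CPM and 104 CPM. Ezh2, a histone methyltransferase, had 59.2 CPM and 39.3 CPM, and Jak2, a kinase of cytokine receptors, had 7.03 CPM and 4.17 CPM. Ciita, the class II transactivator, had 0 UMIs in both libraries. Over all kept cells this allows up to 0.257 CPM and 0.379 CPM by a limit of 3 counts. The class II-rich cells hold few UMIs, and 3 counts there stand for 207 CPM and 24.5 CPM. Ciita is therefore not bounded closely in those cells. Nlrc5, the class I transactivator, had 2 and 8 UMIs, too few for a ratio to be read. Spi1 was at 0.073 (0.024 to 0.12).

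Of the 8 interferon-stimulated genes with enough UMIs, 3 were higher and 0 lower, and the median log2 ratio was 0.53. Ifitm3 had 152 CPM and 272 CPM, Ifi27l2a had 3.26 CPM and 9.72 CPM, and Zbp1 had 6.51 CPM and 10.1 CPM. These values stand beside those of class I, and pIpC was given to the donors of both groups.

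**Figure D4:**
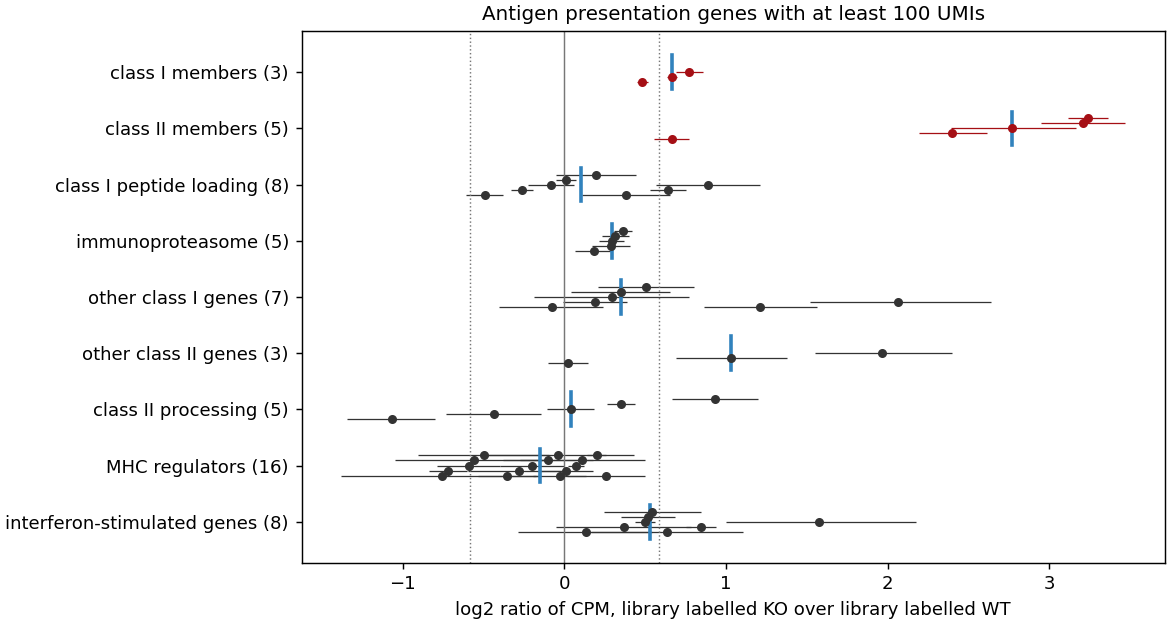
log2 ratio of CPM, KO-labelled over WT-labelled library, for genes with at least 100 UMIs in each list (number of genes in parentheses); bars are exact 95% counting intervals, blue lines are list medians, and dotted lines mark 1.5-fold. The 4 class II members other than H2-DMa lie between 2.40 and 3.24, whereas the 16 regulators lie between -0.75 and 0.26.

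The study was about variation between cells, so the CV (coefficient of variation: the standard deviation divided by the mean) was taken over cells thinned to 1000 UMIs. The log2 ratio of the CV, KO-labelled over WT-labelled library, was -0.41 for H2-K1, -0.11 for H2-D1, 0.020 for B2m and -0.21 for H2-DMa. Over the 2737 robust genes, those detected in 10% or more of kept cells, its median was 0.020 and its 10th to 90th percentile range was -0.19 to 0.28. H2-K1 and H2-DMa thus lay below that range, and H2-D1 and B2m lay inside it. Without thinning the range was -0.028 to 0.48. H2-DMa (0.015) and B2m (0.25) lay inside it, and H2-K1 (-0.38) and H2-D1 (-0.038) lay below it. In cells with 1000 or more genes the range was -0.16 to 0.36. H2-K1 (-0.13), H2-D1 (-0.035), B2m (0.19) and H2-DMa (0.091) lay inside that range. For Cd74 the CV was 27.4 and 9.79, a log2 ratio of -1.48, and for H2-Aa, H2-Ab1 and H2-Eb1 the log2 ratio lay between -1.59 and -1.17. These 4 genes are not robust genes and were found in few cells. Without class II-rich cells the CV of Cd74 was 26.2 and 8.28. At low counts a CV falls as the mean rises, and means of these genes were higher in the KO-labelled library. After thinning, H2-K1 stood at 193 and 306 CPM, H2-DMa at 123 and 197 CPM, and Cd74 at 97.4 and 611 CPM. The CV was not corrected for the mean, so a lower CV here does not show less variation beyond counting.

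Over the 24 sums by cluster and library, the robust genes most like the class I sum were Arl6ip5 (Pearson r = 0.93), Sepw1 (0.93), Sub1 (0.93), Gng10 (0.93) and Zfp36l2 (0.93), members left out. The genes most like the class II sum were Psmd8 (0.88), Tor1aip1 (0.87), mt-Co1 (0.87), Sepw1 (0.86) and Ppp2ca (0.86). H2-DMa was about as close to the class I sum (0.88) as to the class II sum it is part of (0.88), while Cd74 had 0.70 and 0.85. The class I and class II sums had an r of 0.81 with each other, 0.75 within the WT-labelled library and 0.85 within the KO-labelled library. The points share 2 libraries, depth and clusters, and these values are a description.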

How the data were processed

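Single-cell RNA-seq counts of 2 libraries were used. The authors deposited 1 matrix of raw UMI counts, not normalized; the submitters' processing notes name Cell Ranger 1.3.1 and mm10, and the annotation is not given in the sources used here. Libraries were told apart by the barcode suffix. The labels do not say which suffix is which genotype, and the assignment (1 for KO, 2 for WT) follows the analysis code published with the study. Cells with 500 or more genes were kept, doublets were not removed, and no column of per-sample values was left unused.

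UMIs were summed per library and scaled to CPM. Log2 ratios carry exact conditional binomial intervals, CPM Poisson intervals and shares Clopper-Pearson intervals, at 95%; the interval of the class difference is approximate. Thinning drew 1000 UMIs per cell without replacement. Clusters came from k-means (12 clusters, 20 components, 784 variable genes) and were named only where at least 3 markers were raised and 2 led and no other list had 0.5 or more of its markers raised, with limits set after leading genes were seen. Functions were tested on simulated data. Named were all members, Kat2a, pathway genes with at least 100 UMIs past 1.5-fold, a fixed set of pathway genes whatever their values, the 5 genes most like each class, and cluster and class II-rich cell markers. H2-Ea-ps and H2-Ea have no row. Members and lists were chosen with earlier results of these data known. Python 3.11.15 was used with numpy 2.4.6, scipy 1.17.1 and scikit-learn 1.9.0. Alternatives are given in the closing section.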

Additional observations from a re-analysis of the deposited data

Results flagged for a closer look

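Cells with fewer than 500 detected genes, which no comparison above uses, held class II transcript at a high level in the KO-labelled library. Of 695 such cells, 34 were class II-rich (4.89%, 3.41 to 6.77%), against 1 of 203 in the WT-labelled library (0.493%, 0.0125 to 2.71%). Cd74 stood at 3940.4 CPM (3791 to 4094) in these cells of the KO-labelled library and at 480 CPM (393 to 580) in those of the WT-labelled library, where all 107 UMIs came from 1 cell. In the 34 cells Cd74 had a lowest value of 10, a median of 72 and a highest value of 146 UMIs per cell, and made up a median of 8.69% of the UMIs of a cell. B2m stood at 1502 CPM and 2066 CPM in cells under 500 genes, against 1457 CPM and 2312 CPM in kept cells.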

How the results depend on the processing

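No paired analysis was possible because each genotype had a single library. With single libraries, differences between the pools, the leukemias in them and their handling cannot be told apart from genotype, and intervals cover counting error only. Depth limits the chain genes most: H2-Eb1 had 70 UMIs in the WT-labelled library. No alternative reversed the sign of a member's log2 ratio. The ranges over alternatives were 0.66 to 0.89 for H2-K1, 0.37 to 0.54 for H2-D1, 0.59 to 0.70 for B2m, 0.36 to 0.84 for H2-DMa, 1.07 to 5.85 for Cd74, 0.90 to 6.54 for H2-Aa, 0.80 to 2.99 for H2-Ab1 and 0.53 to 7.01 for H2-Eb1. For Cd74, H2-Aa and H2-Eb1 the upper end came from leaving out the 10 highest cells of each library. Those cells held 88.8%, 94.4% and 97.1% of the UMIs of these genes in the WT-labelled library. In the KO-labelled library they held 31.4%, 43.6% and 46.0%, so that alternative left few UMIs in the WT-labelled library only. Alternatives on class II-rich cells, shared barcodes and cluster 12 were chosen after seeing the data.

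The class I log2 ratio of 0.59 was 0.52 after thinning to 1000 UMIs, 0.56 as the mean of per-cell shares, 0.52 relative to the median of robust genes (which stood at 0.074), 0.63 without granulocyte-like clusters, 0.52 without cluster 12 and 0.52 without B2m. The class II log2 ratio of 2.19 and the difference between classes of -1.59 moved further. They were 2.64 and -2.05 with every deposited cell, 1.28 and -0.67 in cells with 1000 or more genes, 2.04 and -1.52 after thinning, and 2.31 and -1.75 as means of per-cell shares. Without the 10 highest cells of each library, more than the 8 class II-rich cells of the WT-labelled library, they were 2.36 and -1.76, and without the 5% deepest cells 2.29 and -1.71. Leaving out granulocyte-like clusters gave 2.07 and -1.44, leaving out class II-rich cells 1.01 and -0.42, leaving out cluster 12 1.24 and -0.72, and reweighting clusters to the same shares 0.83 and -0.22. Without H2-DMa they were 3.05 and -2.46 and without Cd74 1.53 and -0.93. The class II ratio relative to robust genes was 2.11, and the difference without B2m was -1.66.

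The difference between libraries in the share of cells with class I UMIs, 3.91 percentage points after thinning to 1000 UMIs, was -0.40 without thinning and 1.61 at 1500 UMIs. The number of members with a higher CV in the KO-labelled library, 1 in the report, was 2 without thinning, 3 in cells with 1000 or more genes and 0 without the 10 highest cells, where H2-Aa and H2-Eb1 gave no value. Of other pathway genes, 3 of 23 robust genes were past 1.5-fold, beside 3.54% higher and 3.43% lower over all robust genes. Past 2-fold were 6 of 52, beside 1.32% higher and 3.19% lower over all genes with at least 100 UMIs. The count in the report was 14 of 52. The spread of class II over clusters was 37.2-fold with 8 clusters, 1262-fold with 16 and 73.5-fold with libraries clustered apart in the WT-labelled library, against 340-fold, and 37.3-fold with 8 clusters in the other, against 120.4-fold. Of the 5 genes most like class I, 0 were shared within either library alone; for class II, 1 was shared with Spearman correlation, 3 within the WT-labelled library and 0 within the other. The causes were not tested.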
